A study of Mus musculus with 15 samples.

Results

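The 9 genes described here encode membrane carriers that move organic anions, bile salts, hormones and drugs in and out of liver cells: Slco1a1, Slco1a4, Slco1b2, Slco2b1, Slc22a7, Abcc2, Abcc3, Abcc4 and Abcg2. They were taken by name from the 37991 gene identifiers of the count table, by a rule that uses no measured value, although earlier results of these data were known when the list was drawn up. All 9 were matched and all 9 passed the filter on low counts, which kept 14258 genes. Carriers that are specific for organic cations are not among the 9 and appear here only in a list of related genes.

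RNA sequencing had been done on whole liver of female C57BL/6 mice, with 1 animal per library and 5 libraries per group. Young WT livers came from mice aged 90 days and old WT livers from mice aged 600 days. Old KO livers came from mice of the same 600 days with a constitutive, whole-body knockout of S6K1 (Rps6kb1), a kinase downstream of mTORC1. All mice came from breeding of heterozygotes and were fed a chow diet. No young KO group was measured, so genotype could be compared at 600 days alone, and old KO and young WT mice differ in both age and genotype. Total counts per library lay between 21801754 and 38065359, and Rps6kb1 itself was at 33.3 to 45.4 CPM (counts divided by the scaled library size) in the 10 WT livers and at 15.2 to 20.8 CPM in the 5 KO livers. Ddx3y and Kdm5d, genes of the Y chromosome, had 0 counts in all 15 libraries, Eif2s3y had 1 count in 3 of them and Uty had 6 to 22 counts in each, while Xist, made from the inactive X chromosome, had 16654 to 38217 counts. The hepatocyte marker genes Alb, Apoa1, Apoa2, Ttr, Fgb, Trf and Tat summed to 78078 to 143762 CPM, whereas markers of bile duct cells summed to 51.7 to 127.8 CPM.

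Drugs, bilirubin conjugates, steroid sulphates and bile salts enter hepatocytes from the blood through organic anion transporting polypeptides (OATPs, the Slco genes) and organic anion transporters (the Slc22 genes). Inside the cell some of these compounds are conjugated. ATP-driven pumps of the ABC family send compounds either across the canalicular membrane into bile (Abcc2, Abcg2) or back across the sinusoidal membrane into blood (Abcc3, Abcc4). In rodents several of these genes are known to differ between the sexes under the control of growth hormone, and others respond to the xenobiotic receptors CAR and PXR or to the oxidative stress factor NRF2.

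In the mm9 (NCBIM37) assembly, 3 of the 4 OATP genes lie close together on chromosome 6. They are Slco1b2 (141578039 to 141635167, plus strand), Slco1a4 (141753961 to 141804720, minus strand) and Slco1a1 (141855803 to 141895483, minus strand). Abcg2 lies elsewhere on the same chromosome (58534517 to 58642863, plus strand). Slco2b1 is on chromosome 7 (106806314 to 106859850, minus strand), Abcc3 on chromosome 11 (94204612 to 94254311, minus strand), Abcc4 on chromosome 14 (118881914 to 119105441, minus strand), Slc22a7 on chromosome 17 (46569134 to 46575426, minus strand) and Abcc2 on chromosome 19 (43856682 to 43912441, plus strand). All 9 are protein-coding, and the values below count reads in their exons. The strand setting of the counting was not given, and Slco2b1 shares exon positions with Gm15635 on the other strand, which had 433 counts over all libraries. Slco1a1 and Slco1a4 are related in sequence to each other and to other genes of the cluster, so short reads could have been lost or assigned to the wrong member.

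RefSeq promoter sequences of build GRCm38.p6 were at hand for 7 of the 9 genes, and not for Abcc3 and Slc22a7. The 250 bases before the start are printed for the member with the largest fall with age (Slco1a1), the member with the largest rise (Abcc4, the more upstream of 2 listed starts) and a canalicular pump that passed no test in any comparison (Abcc2). The windows are chr6:141946963-141947212, minus strand (Slco1a1), chr14:118706220-118706469, minus strand (Abcc4), and chr19:43782058-43782307, plus strand (Abcc2), and these coordinates are not those of mm9. Capitals mark every match, on either strand, to 5 short motifs: the NRF2 motif TGACNNNGC, the STAT5 motif TTCNNNGAA, the AhR core GCGTG, the HNF1 half-site GTTAAT and the nuclear receptor half-site AGGTCA. No match overlapped another.
Slco1a1: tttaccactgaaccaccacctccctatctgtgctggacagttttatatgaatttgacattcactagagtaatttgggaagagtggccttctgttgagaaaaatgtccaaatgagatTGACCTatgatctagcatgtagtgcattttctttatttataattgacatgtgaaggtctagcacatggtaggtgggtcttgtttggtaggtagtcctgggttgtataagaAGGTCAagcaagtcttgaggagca
Abcc4: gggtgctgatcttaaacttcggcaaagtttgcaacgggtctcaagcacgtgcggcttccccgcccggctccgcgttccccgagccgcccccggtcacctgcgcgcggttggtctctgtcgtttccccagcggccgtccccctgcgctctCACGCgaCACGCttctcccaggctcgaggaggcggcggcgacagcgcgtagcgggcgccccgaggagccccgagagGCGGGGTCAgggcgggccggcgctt
Abcc2: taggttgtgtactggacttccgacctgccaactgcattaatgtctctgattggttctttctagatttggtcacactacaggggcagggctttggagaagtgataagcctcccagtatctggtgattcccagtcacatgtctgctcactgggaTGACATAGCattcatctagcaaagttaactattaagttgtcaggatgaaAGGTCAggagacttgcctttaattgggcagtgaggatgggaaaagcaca
The NRF2 motif stood once in the Abcc4 window, as GCGGGGTCA on the opposite strand and 25 bases before the start, and once in the Abcc2 window, as TGACATAGC and 98 bases before the start. It stands in 10.2% of all 32851 RefSeq promoter windows of the same length. The Abcc4 window also held 2 AhR cores (28.2% of all windows hold at least 1), and its G and C content was 72.0%, against 40.4% for Slco1a1 and 45.6% for Abcc2. The nuclear receptor half-site (14.0% of all windows) stood 2 times in the Slco1a1 window and 1 time in the Abcc2 window. Neither the STAT5 motif (7.02% of all windows) nor the HNF1 half-site (6.43%) was found in these 3 windows. A match describes the letters of the window and not a bound site, and a missing match says nothing about the factor.

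Levels of different genes were compared per length, as RPKM, the CPM per kilobase of exon. In young WT livers Slco1b2, which encodes the main OATP of the mouse hepatocyte (Oatp1b2), had the highest level, 246 ± 76.9 RPKM (SD, n = 5). Slco1a4 at 101 ± 32.1 RPKM, Abcc2 at 92.5 ± 14.6 RPKM and Abcc3 at 79.3 ± 6.93 RPKM came next, and the ranges of neighbours in that order overlapped. Slco2b1 followed at 26.4 ± 2.08 RPKM, clear of its neighbours on both sides.

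Slco1a1 (12.2 ± 4.78 RPKM) and Abcg2 (10.4 ± 1.68 RPKM) overlapped each other, and Slc22a7 (4.08 ± 2.59 RPKM) and Abcc4 (0.883 ± 0.298 RPKM) were lowest. The order at the bottom differed between groups. Abcc4 stood at 3.08 ± 0.638 RPKM in old WT livers, above Slc22a7 at 2.74 ± 1.17 RPKM, with overlapping ranges. In old KO livers Slc22a7 reached 7.60 ± 2.81 RPKM and Slco1a1 was lowest of the 9 at 1.70 ± 1.01 RPKM. Slco1b2 alone made up 53.8% to 82.8% of the summed RPKM of the 5 uptake genes over the 15 libraries. These levels depend on the exon length used: with the longest transcript in place of all exons, Abcg2 in young WT livers stood at 20.4 RPKM and above Slco1a1 at 16.4 RPKM.

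**Figure D1:**
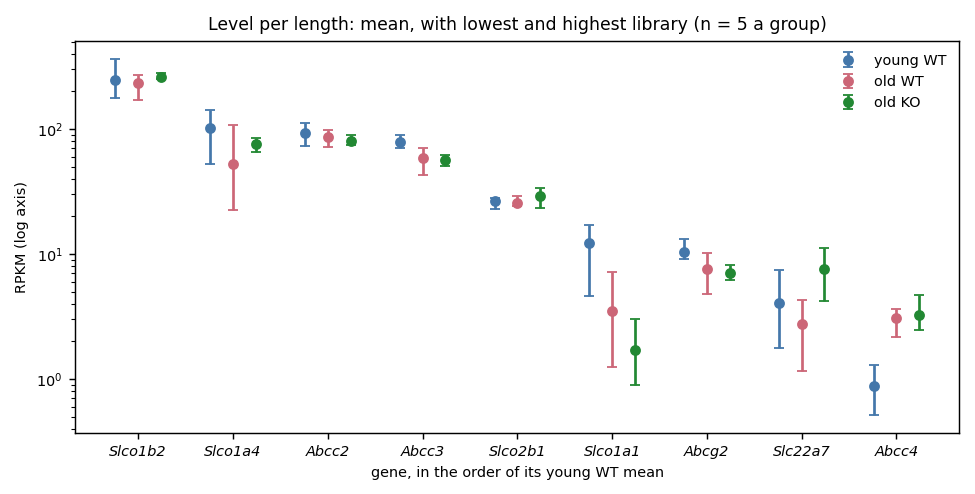
Level per exon length (RPKM, log axis) of the 9 transporter genes in young WT, old WT and old KO livers, in the order of the young WT means; points are means of 5 libraries and bars reach from the lowest to the highest library. Slco1b2 was highest in all 3 groups, Abcc4 was lowest in young WT livers at 0.883 RPKM and Slco1a1 was lowest in old KO livers at 1.70 RPKM.

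A pair of libraries stood apart from their groups. Young WT 6 and old WT 7 lay farthest from the other libraries of their own groups over all tested genes, with a root mean square difference in log2 CPM of 0.494 and 0.539, against 0.317 to 0.420 for the other 8 WT libraries. Old KO 6, at 0.489, lay about as far from its group. Among the 9 members, young WT 6 was the highest or lowest of its group for 7 and old WT 7 for 8. For 7 of the 9 genes they deviated from their group means in opposite directions, and for Slco2b1 and Abcc3 both lay below. Young WT 6 had the least Slco1a1, Slco1a4 and Slco2b1 and the most Slco1b2, Abcc2, Abcc4 and Abcg2 of its group, and old WT 7 had the most Slco1a1 and Slco1a4 and the least Slco1b2, Slc22a7, Abcc2, Abcc3, Abcc4 and Abcg2. Young WT 6 was also the library with the fewest counts (21801754). Old WT 7 had the lowest summed level of pericentral hepatocyte markers of the 5 old WT libraries (5128 CPM, the other 4 at 7796 to 9942 CPM) and the highest of periportal markers (12888 CPM, the other 4 at 5421 to 7069 CPM). The part of these features in the members' values was not tested, and results whose call changes without both libraries are given both ways.

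**Figure D2:**
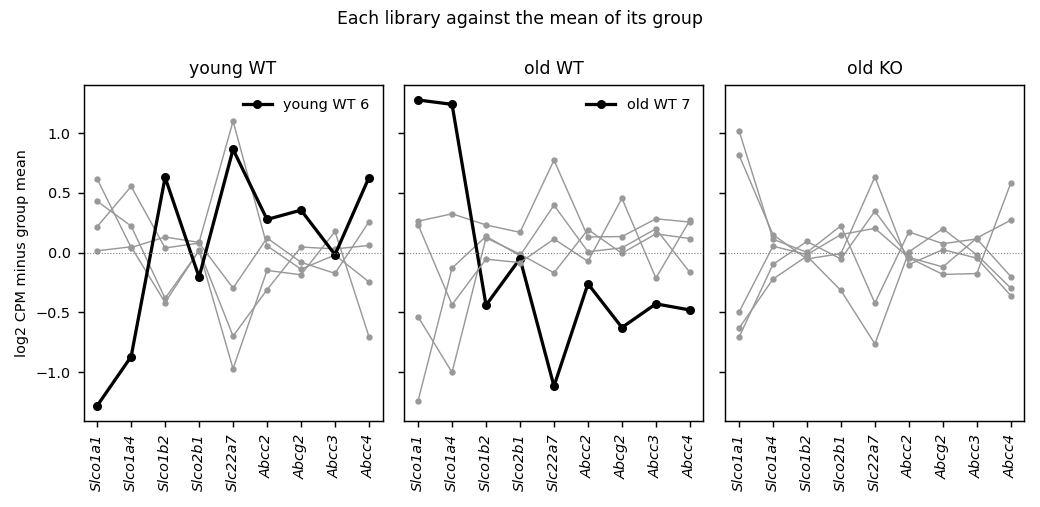
Deviation of each library from the mean of its own group, in log2 CPM, for the 9 transporter genes; each line is 1 library, and young WT 6 and old WT 7 are drawn in black. The black lines lie on opposite sides of 0 for 7 of the 9 genes, and both lie below 0 for Slco2b1 and Abcc3; young WT 6 is lowest of its group for Slco1a1 and Slco1a4, for which old WT 7 is highest.

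The first comparison asked how age changed the transporters in WT livers. Of the 9 members, 3 passed the test (edgeR's quasi-likelihood test, adjusted p under 0.05 over all genes), where 18.8% of all tested genes did. Slco1a1 and Abcc3 were lower and Abcc4 was higher in old WT livers. Fold changes lay below 0 on the log2 scale for 8 of the 9, with a median of -0.43, beside a median of 0.01 over all tested genes. Those of Slco1b2 (-0.07), Slco2b1 (-0.03) and Abcc2 (-0.09) were near 0, and their signs turned with a replicate block. In whole liver, less RNA per cell and fewer cells of a type cannot be told apart.

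Slco1a1 encodes Oatp1a1, a sinusoidal uptake carrier of steroid sulphates and bile salts. It was at 24.1, 59.4, 68.3, 79.2 and 90.1 CPM in the young WT libraries and at 6.56, 10.7, 18.2, 18.6 and 37.6 CPM in the old WT libraries. The groups overlapped through 2 libraries only, the low young WT 6 and the high old WT 7. It fell by 1.81 on the log2 scale (SE 0.454, edgeR adjusted p = 0.0124), to 0.285 of the young level. The exact 2-sided permutation test gave p = 0.0159 (n = 5 in each group). Without both of those libraries it was -2.45 on the log2 scale (edgeR adjusted p = 0.000843). Both were picked after their values were seen, and leaving them out enlarges the fall and lowers p by construction.

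Slco1a4, the neighbouring gene, encodes Oatp1a4, a carrier of bile salts and cardiac glycosides. It stood at 204, 383, 385, 434 and 547 CPM in young WT livers and at 87.2, 129, 160, 219 and 413 CPM in old WT livers. Here too the overlap came from young WT 6 and old WT 7. The log2 fold change of -0.95 (SE 0.325) narrowly missed the threshold, with an edgeR adjusted p of 0.0508, and the exact permutation test gave p = 0.0635. Without old WT 7 the log2 fold change was -1.38 (edgeR adjusted p = 0.00236), without young WT 6 it was -1.11 (edgeR adjusted p = 0.0207) and without both it was -1.55 (edgeR adjusted p = 0.000328). These libraries, picked after their values were seen, hold the highest old WT and the lowest young WT value. Leaving them out enlarges the fall and lowers p by construction, so it adds no support. The smallest change on a single omission was -0.76, without old WT 1 (edgeR adjusted p = 0.103).

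The other uptake genes passed no test of age. Slco1b2 was at 875, 896, 1201, 1280 and 1809 CPM in young WT livers and at 841, 1099, 1244, 1255 and 1340 CPM in old WT livers, and the old values lay inside the range of the young ones apart from old WT 7. Its log2 fold change was -0.07 (95% interval -0.43 to 0.30). Slco2b1, the gene of the broadly expressed Oatp2b1, varied least, at 128 to 157 CPM in young WT and 137 to 163 CPM in old WT livers, with a log2 fold change of -0.03 (95% interval -0.24 to 0.17). Slc22a7, which encodes the organic anion transporter OAT2, was low and variable, at 3.57, 4.32, 5.70, 12.8 and 15.04 CPM in young WT livers and at 2.35, 4.53, 5.51, 6.71 and 8.71 CPM in old WT livers. Its log2 fold change of -0.56 had a wide interval, -1.43 to 0.30, and the edgeR adjusted p was 0.354.

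Of the canalicular exporters, Abcc2 (MRP2), the pump for bilirubin glucuronides and glutathione conjugates, stood at 424, 474, 547, 572 and 637 CPM in young WT livers and at 413, 470, 497, 542 and 565 CPM in old WT livers. The groups overlapped almost fully, and the log2 fold change was -0.09 (95% interval -0.33 to 0.14). Abcg2 (BCRP), a pump for sulphate conjugates, urate and many drugs, was at 45.4, 46.9, 48.8, 53.3 and 66.1 CPM in young WT livers and at 23.97, 36.9, 38.1, 40.7 and 50.8 CPM in old WT livers. Only old WT 10 reached into the young range. The log2 fold change of -0.45 (SE 0.154) narrowly missed the threshold (edgeR adjusted p = 0.0508, exact permutation p = 0.0317), and without old WT 10 it was -0.58 (edgeR adjusted p = 0.0155). Old WT 10 held the highest old WT value, so leaving it out enlarges the fall by construction and adds no support. It was the only 1 of the 15 single omissions with which Abcg2 passed. Without young WT 6 the log2 fold change was -0.34 (edgeR adjusted p = 0.114), without old WT 7 it was -0.32 (edgeR adjusted p = 0.0879) and without both it was -0.22 (edgeR adjusted p = 0.158).

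The 2 basolateral exporters differed in direction. Abcc3 (MRP3), which returns glucuronides to the blood, stood at 399, 444, 445, 460 and 509 CPM in young WT livers and at 245, 285, 368, 379 and 402 CPM in old WT livers. Young WT 3 and old WT 4 overlapped by a narrow margin, and the log2 fold change was -0.43 (SE 0.123, edgeR adjusted p = 0.0255, exact permutation p = 0.0159). This call rested on single libraries: the edgeR adjusted p was 0.0532 without young WT 1, 0.0657 without young WT 2 and 0.0590 without old WT 10.

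Abcc4 (MRP4), which exports bile salts together with glutathione, cyclic nucleotides and sulphated steroids, rose the most. It was at 2.96, 4.07, 5.03, 5.77 and 7.46 CPM in young WT livers and at 12.4, 15.4, 18.8, 20.7 and 20.9 CPM in old WT livers. Every old WT library lay above every young WT library, which held for 1 of the 9 members and for 11.4% of all tested genes in this comparison. The rise was 3.51-fold, or 1.81 on the log2 scale with an SE of 0.238, and its edgeR adjusted p was 0.00027. The exact permutation p of 0.00794 was the smallest that 5 libraries against 5 can give. Leaving out any 1 library kept both this call and that of Slco1a1.

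**Figure D3:**
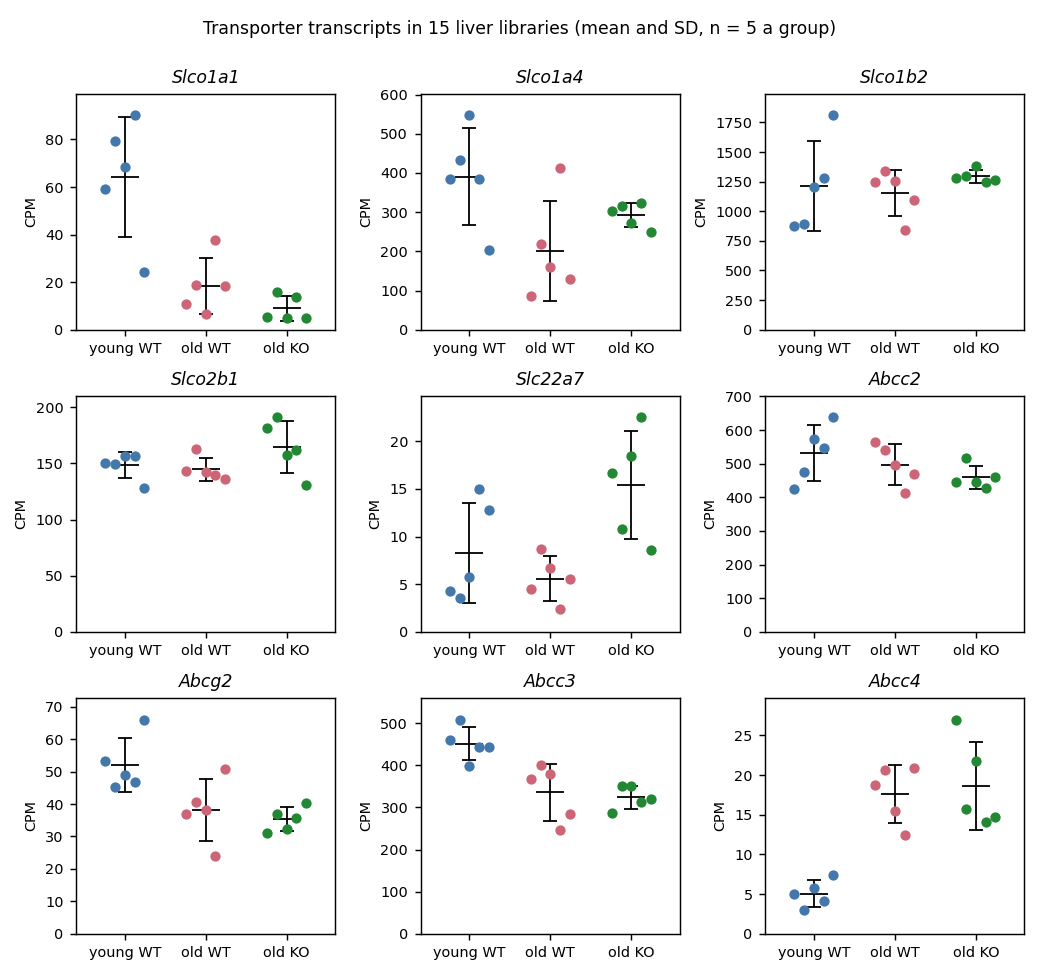
CPM of the 9 transporter genes in each library (linear axes that start at 0); points are libraries, and bars give the mean and SD of 5 libraries for young WT, old WT and old KO livers. Abcc4 in both old groups lies above all young WT libraries, at 12.4 CPM or more against 7.46 CPM or less, and Slco1a1 in old KO livers lies below all young WT libraries.

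The second comparison asked what the loss of S6K1 changed in old livers. None of the 9 members passed the test between old KO and old WT livers, in edgeR, in DESeq2 or in limma voom, and 0.533% of all tested genes did in edgeR. In edgeR, 2 members had an unadjusted p under 0.05, Slc22a7 and Slco1a1, as had 11.6% of all tested genes. No member's groups were free of overlap, which 3.20% of all tested genes were. An adjusted p above the threshold does not show that the genotypes were alike, and the intervals below give the differences that the data allow.

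Slc22a7 had the largest difference. It stood at 8.54, 10.8, 16.7, 18.5 and 22.5 CPM in old KO livers, beside 2.35 to 8.71 CPM in old WT livers. Only old KO 6, at 8.54 CPM, lay below an old WT library. The log2 fold change was 1.47 (SE 0.411, 95% interval 0.60 to 2.34), with an edgeR adjusted p of 0.141 and an exact permutation p of 0.0159. The young WT libraries reached from 3.57 to 15.04 CPM, and 3 of the old KO libraries lay above all of them.

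Slco1a1 was lower still in old KO livers, at 4.75, 5.01, 5.50, 13.7 and 15.8 CPM. These values fell into a low set of 3 and a higher pair that lay inside the old WT range of 6.56 to 37.6 CPM. The log2 fold change from old WT was -1.02 (95% interval -2.004 to -0.04, edgeR adjusted p = 0.405, exact permutation p = 0.111), and -0.59 without young WT 6 and old WT 7 (edgeR adjusted p = 0.548).

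Slco1a4 showed a difference in spread. The old KO libraries stood close together at 250, 273, 303, 316 and 324 CPM, a coefficient of variation of 10.5%, whereas the old WT libraries reached from 87.2 to 413 CPM, a coefficient of variation of 63.3%. All old KO values lay above 4 of the 5 old WT values and below old WT 7. The log2 fold change was 0.54 (SE 0.323, edgeR adjusted p = 0.545). It was 0.97 (edgeR adjusted p = 0.0469) with old WT 7 and young WT 6 both left out, the only setting in which a member passed this comparison. Old WT 7, picked after its value was seen, held the only old WT value above those of old KO livers. Leaving it out enlarges the difference by construction. Leaving out the libraries farthest from their groups also narrows the spread that the test uses, so this setting adds no support. Slco1b2 had the same tight grouping in old KO livers, at 1247 to 1380 CPM with a coefficient of variation of 3.97%, against 17.0% in old WT and 31.3% in young WT livers. From old WT to old KO livers the coefficient of variation also fell for Abcc3 (20.0% to 8.49%), Abcg2 (25.2% to 10.6%) and Abcc2 (12.1% to 7.47%). It fell less for Slco1a1 (65.0% to 59.7%) and Slc22a7 (42.8% to 37.0%). It rose for Slco2b1 (7.12% to 14.1%) and Abcc4 (20.7% to 30.0%). These spreads were not tested.

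The other members differed little between genotypes. Slco1b2 had a log2 fold change of 0.16 (95% interval -0.20 to 0.53) and Slco2b1 of 0.18 (95% interval -0.02 to 0.39), with Slco2b1 at 131 to 191 CPM in old KO livers. Among the exporters, Abcc2 was at 427 to 517 CPM in old KO livers (log2 fold change -0.12, 95% interval -0.35 to 0.12), Abcg2 at 31.0 to 40.4 CPM (-0.11, 95% interval -0.44 to 0.22) and Abcc3 at 286 to 352 CPM (-0.05, 95% interval -0.31 to 0.21). Abcc4, which rose with age, stood at 14.0, 14.7, 15.7, 21.8 and 27.0 CPM in old KO livers, where 3 lay inside the old WT range and 2 above it, and its log2 fold change was 0.08 (95% interval -0.40 to 0.56). Of 7 macrophage markers, 4 fell in old KO livers (Cd5l, Clec4f, Vsig4 and Cd68), and the whole list summed to 111 to 157 CPM against 181 to 487 CPM in old WT livers. The part of that difference in the members' values was not tested.

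**Figure D4:**
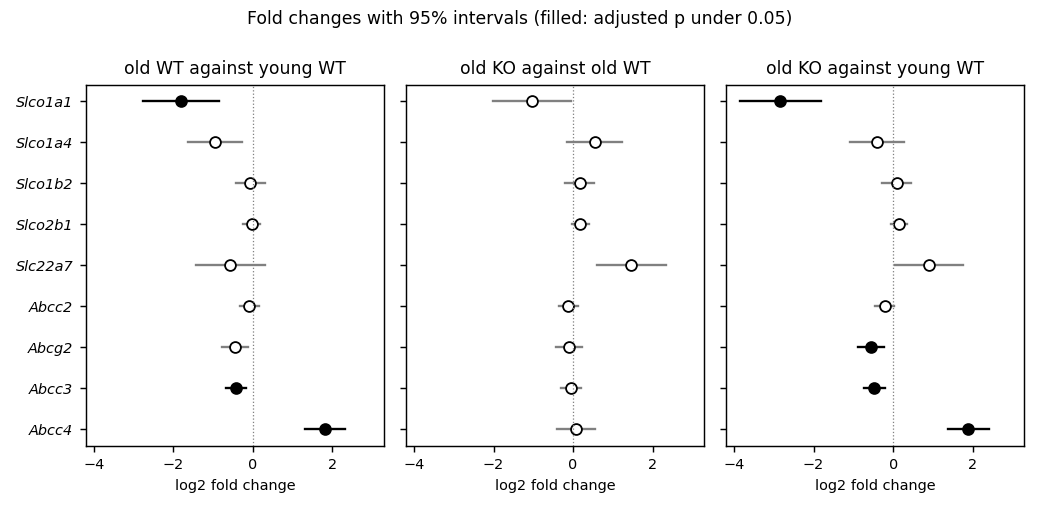
Log2 fold changes of the 9 transporter genes in the 3 comparisons, with 95% intervals from the edgeR fit; filled points passed an adjusted p of 0.05. In the comparison of genotypes all points are open, and with age Abcc4 (1.81) and Slco1a1 (-1.81) lie farthest from 0.

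Old KO livers were also compared with young WT livers. There 4 of the 9 members passed, beside 23.3% of all tested genes, and the same 4 had groups that did not overlap, beside 13.9% of all tested genes. This comparison shares its libraries with the other 2, so it gives values side by side and no separate evidence. Slco1a1 had a log2 fold change of -2.84 (edgeR adjusted p = 0.000934), to 0.140 of the young level. Abcc4 had 1.89 (edgeR adjusted p = 0.000129), Abcg2 had -0.56 (edgeR adjusted p = 0.0165) and Abcc3 had -0.48 (edgeR adjusted p = 0.0117). For each of these 4 the exact permutation p was 0.00794, the smallest possible. Slc22a7 (0.90, edgeR adjusted p = 0.115) and Slco1a4 (-0.41, edgeR adjusted p = 0.375) did not pass in the main fit with all libraries. Under the 8 alternative ways of processing, Slc22a7 passed in 1 and Slco1a4 in 0. Without young WT 6 and old WT 7 both genes passed, Slc22a7 at 1.11 (edgeR adjusted p = 0.0470) and Slco1a4 at -0.57 (edgeR adjusted p = 0.0438). Without young WT 4 alone Slc22a7 passed, at 1.24 (edgeR adjusted p = 0.0423). Young WT 6 and old WT 7 were picked after their values were seen. Young WT 4 held the highest young WT value of Slc22a7 and young WT 6 the next, and young WT 6 held the lowest of Slco1a4. Leaving these libraries out enlarges the differences by construction, so it adds no support. Young WT 4 was the only 1 of the 15 single omissions with which Slc22a7 passed.

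The wider transporter families were read from lists. Of 5 tested genes among the other OATPs, 1 fell with age, Slco4a1, a carrier of thyroid hormone that is scarce in liver (0.283 CPM in old WT against 0.690 CPM in young WT livers, log2 fold change -1.27). Of 14 tested genes among the other SLC22 and MATE carriers, 5 rose and 1 fell. The largest rises were those of Slc22a29 (log2 fold change 2.45, SE 0.313, edgeR adjusted p = 0.000242) and Slc22a27 (1.45, SE 0.186, edgeR adjusted p = 0.000242). Both belong to a cluster of near-identical genes, so the split of reads between them is uncertain. Slc22a3 (OCT3), a carrier of organic cations, fell by 1.37 on the log2 scale (SE 0.205, edgeR adjusted p = 0.00066).

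Of 9 tested genes among the other ABC drug exporters, 1 rose, Abcb1a, a gene of P-glycoprotein (log2 fold change 1.25, SE 0.260, edgeR adjusted p = 0.00451). Of 9 tested carriers of bile salts, phospholipids and sterols, Slc10a2 (log2 fold change 1.14) and Abcb11, the bile salt export pump (0.45), rose and Slc10a1, the sodium-dependent bile salt uptake carrier (-0.35), fell. In the comparison of genotypes no gene of these 4 lists passed, also not Slco2a1 (log2 fold change 0.01), Abcc6 (0.08) and Slc10a1 (0.36, edgeR adjusted p = 0.128).

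Genes that hold or regulate the carriers were listed in the same way. Of 6 membrane scaffolds, 2 rose with age, Slc9a3r1 (NHERF1; log2 fold change 0.58, SE 0.111, edgeR adjusted p = 0.00286) and Rdx, the gene of radixin, which anchors Abcc2 in the canalicular membrane (0.39, SE 0.109, edgeR adjusted p = 0.0211). Of 15 transcription factors, Nfe2l2 (NRF2) alone rose, by 0.30 on the log2 scale (SE 0.081, edgeR adjusted p = 0.0173). Of 10 tested targets of NRF2, 7 rose and 1 fell. The largest rises were those of Gstm3 (log2 fold change 1.86), Gsta2 (1.64) and Gclc (1.18), genes of glutathione conjugation and synthesis, while Srxn1 (-0.69) fell. Abcc4 is known as a target of NRF2 in mouse liver, as are Abcc2 and Abcc3, whose fold changes with age were given above as -0.09 and -0.43. The part of NRF2 in the members' values was not tested.

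Of 8 tested targets of CAR and PXR, 2 rose and 2 fell with age. They included Cyp2c55 (2.83-fold higher), Alas1, the first enzyme of heme synthesis (-1.45), and Por, the electron donor of cytochrome P450 enzymes (-0.88). Slco1a4 is known as a target of PXR, whose part in its value was not tested. None of 5 AhR targets passed, and Cyp1a2, the most abundant, had a log2 fold change of -0.15. Between genotypes, Hmox1 (heme oxygenase, -0.85, edgeR adjusted p = 0.0484) was the only gene of the scaffold, transcription factor and target lists to pass, and it fell in old KO livers. Hmox1 is also made by macrophages, whose markers fell in the same comparison, and their part in its value was not tested. The most abundant genes of the lists in which none passed between genotypes had log2 fold changes of 0.02 (Rdx), 0.22 (Hnf4a), -0.35 (Cyp3a11) and 0.88 (Cyp1a2, edgeR adjusted p = 0.124).

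**Figure D5:**
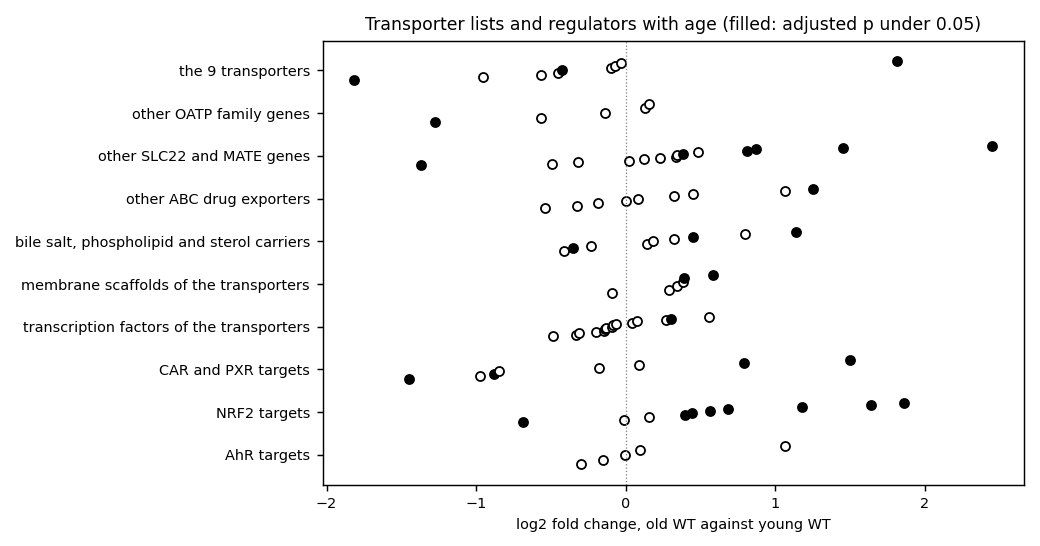
Log2 fold changes between old WT and young WT livers for the tested genes of each transporter or regulator list; each point is a gene, filled where the edgeR adjusted p was under 0.05. The 9 transporters lie mostly below 0 with Abcc4 (1.81) apart from the rest, and 7 of 10 tested NRF2 targets are filled points above 0.

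Sex-dependent genes are given beside these values because some members are known to differ by sex. Slco1a1 is known to be higher in livers of male mice and Abcc4 in those of females. The other members were not sorted by sex here, so these examples do not describe the whole set. Of 17 tested female-biased genes, 9 rose with age and 1 fell. Cyp3a41b rose by 4.87 and A1bg by 4.61 on the log2 scale, and Sult3a1 fell by 4.80. Slc22a27 and Slc22a26 count in this list as well as among the SLC22 genes. Of 6 tested male-biased genes, 1 fell, Cyp2d9 (log2 fold change -3.66, edgeR adjusted p = 0.000342), and the other 5 had fold changes below 0. Of 8 genes of growth hormone signalling, Ghr (0.81) and Stat5a (0.50) rose. Between genotypes Sult3a1 alone passed among these lists, 2.999 higher in old KO livers on the log2 scale, while Gstp1 (0.17) and Igf1 (0.19), the most abundant male-biased and growth hormone signalling genes, did not. The part of sex-dependent expression or growth hormone in the members' values was not tested.

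Markers of liver zones and other cells moved with age in part. Of 8 pericentral hepatocyte markers 3 fell (Oat, Slc1a2 and Glul), of 8 periportal markers 2 fell (Cyp2f2 and Arg1), of 6 endothelial markers 2 fell (Lyve1 and Stab2), and of 7 bile duct markers 1 rose (Spp1). Of 7 hepatocyte markers, Trf rose and Apoa1 fell. The pericentral markers summed to 10831 to 12711 CPM in young WT and 5128 to 9942 CPM in old WT livers. The part of these markers in the fall of Slco1a1 and Abcc3 or the rise of Abcc4 was not tested.

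Genes with the most similar pattern over the 15 libraries were found for the 3 members that passed the comparison of age, by Pearson's r of log2 CPM and as a description only, since the groups themselves set much of it. For Slco1a1 they were Atp10d (r = 0.96), Aim1 (0.96) and Lrp5 (0.96). For Abcc3 they were Grhpr (0.96), Lig3 (0.93) and Fam107b (0.93). For Abcc4 they were Slc22a27 (0.97), Hao2 (0.97) and Sult2a3 (0.95).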

How the data were processed

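Raw read counts per gene were deposited by the authors, who prepared stranded poly(A) libraries from liver RNA, sequenced single-end reads, mapped them to mm9 with TopHat (TopHat2 2.0.11 in the submitters' processing notes) and counted with HTSeq. The counts were neither normalized nor pooled. The annotation and strand setting of the counting were not given in the sources used here, and positions come from GENCODE M1. The labels do not give a sequencing batch.

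Counts were scaled by TMM and filtered with filterByExpr in edgeR 4.0.16 (R 4.3.3). A quasi-likelihood model was fitted to all 15 libraries, 3 contrasts were taken, and p-values were adjusted by Benjamini-Hochberg over 14258 genes at a threshold of 0.05. Adjusted p-values come from this test unless another tool is named. The exact 2-sided permutation test used log2 of CPM plus 0.1. DESeq2 1.42.0 and limma 3.58.1 (voom) were alternatives. The fit was tested on simulated data. Young WT, old WT and old KO groups and replicate numbers came from the sample titles. Between 21801754 and 38065359 counts per library make counting error small for most members. Counting error is larger for Abcc4, Slc22a7 and, in the old groups, Slco1a1.

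The 9 members and the other lists, which were written from general knowledge, were chosen with earlier results of these data known. Named besides the members are, per list and per contrast of age and genotype, up to 3 genes with the largest change past the threshold, or the most abundant tested gene where none passed, plus the 3 genes most correlated with each called member. Srxn1, Slc22a26 and the zone and cell markers were named after their values were seen, and so were the libraries young WT 6 and old WT 7. A gene that this rule would name is not reported here.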

Additional observations from a re-analysis of the deposited data

Results flagged for a closer look

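Of 27 sets of 5 libraries (9 members in 3 groups), 2 held a library far from the others by Dixon's test, and chance gives about 1 in 20. Slco2b1 was at 128 CPM in young WT 6, with the other 4 young WT libraries at 150 to 157 CPM, and at 163 CPM in old WT 4, with the other 4 old WT libraries at 137 to 143 CPM. Slco2b1 passed no comparison.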

How the results depend on the processing

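The number of members that passed with age was 3. It was 5 under limma voom and with counts thinned to the smallest library, 4 under the other scalings, DESeq2 and no filter on low counts, and 3 with the 10 libraries alone. Leaving out 1 library at a time gave 2 to 4 members with age, 0 to 0 between genotypes and 4 to 5 for old KO against young WT. Leaving out young WT 6 and old WT 7 together, chosen after seeing the data, gave 4, 1 and 6. Slco1a1 and Abcc4 passed with age under all 8 alternatives and 15 omissions, Slco1a4 under 4 and 2, and Abcg2 under 5 and 1.

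Same-numbered libraries did not deviate together (r of -0.15 to 0.08), so the numbers were not taken as pairs. With a replicate block, 3 members passed with age, 0 between genotypes and 4 for old KO against young WT, and 899, 6 and 2334 of all genes passed, against 2685, 76 and 3319. Replicate number 3 occurs only in young WT and numbers 7 and 10 only in old WT. The block fits those libraries exactly and so takes them out of the comparisons, apart from any pairing. With it Abcc3 moved to -0.23 with age (adjusted p = 0.201), so Abcc3 was not among the 3 members. DESeq2 called 309 genes between genotypes.

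Signs turned only for members near 0. With the replicate block, log2 fold changes with age were 0.20 for Slco1b2, 0.00032 for Slco2b1 and 0.16 for Abcc2, and between genotypes -0.026 for Slco1b2. Without young WT 6 and old WT 7 they were 0.22 for Slco1b2 and 0.048 for Abcc2 with age, and -0.030 for Abcc4 between genotypes. Single omissions gave -0.17 to 0.13 for Slco1b2 with age, -0.15 to 0.015 for Abcc3, -0.094 to 0.16 for Abcc4 and -0.24 to 0.015 for Abcg2 between genotypes, and -0.0036 to 0.28 for Slco1b2 in old KO against young WT. The causes were not tested.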
